A study of Mus musculus with 32 samples.

Results

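Stretches of the mouse genome in which open chromatin sites of Kupffer cells, called in those cells and not in liver endothelial cells, follow each other in dense chains numbered 721 on chromosomes 1 to 19. The chains were selected on the positions of called peaks in 2 lists, so their number and density are descriptions and were not tested. A Kupffer peak was taken as Kupffer-only where no endothelial peak overlapped it by 1 bp or more, which held for 81942 of 134654 Kupffer peaks, or 60.9%. Consecutive Kupffer-only peaks were chained where the gap between them was at most 12500 bp and no endothelial-only peak lay in it, and chains of 10 or more were kept. Peaks shared by both cell types could lie inside a chain without ending it. The 721 chains held 9649 peaks, 11.8% of the Kupffer-only peaks (95% exact binomial interval 11.6% to 12.0%, for counting error only), and were 2.12% of the 33930 chains of any size, single peaks included.

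The peaks come from ATAC-seq, which marks accessible DNA by letting a transposase insert adapters into it, of Kupffer cells and endothelial cells isolated from livers of male C57BL/6J mice on normal chow. Mice were WT or carried a REV-ERB a/b double knockout, made in hepatocytes of adult animals per the series design, and were sampled at ZT10 or ZT22. ZT counts hours after lights on. The labels name 32 libraries in 8 groups (cell type, time and genotype) of 4, with 50000 cells per reaction. Each cell type has 1 peak list, which names no library, and the sources used here do not say which of its 16 libraries went into it. Peaks of WT and knockout mice, and of both times, can therefore not be told apart. The labels give no age, and the promoter that drives the deletion is not named in the sources used here.

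Kupffer cells are the resident macrophages of the liver and line the sinusoids beside the endothelial cells. Open sites of a macrophage are largely enhancers and promoters that lineage factors, PU.1 foremost, keep accessible, and an expressed lineage gene often has several such enhancers in and around it. Groups of close enhancers have been called super-enhancers when they carry much coactivator or acetylated histone, and the gap of 12500 bp used here is the distance customary for joining enhancers in that definition. Neither mark was measured here, so the stretches described are chains of accessible sites and no more. REV-ERBs, the nuclear receptors deleted in hepatocytes, repress transcription in the circadian clock.

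A list gives only chromosome, start and end for a peak, with no height, count or library of origin. The depth is therefore unknown, no value below has a replicate, and genotype and time cannot be compared. A peak missing from the endothelial list was not called there, and its accessibility in those cells is not known. Positions are on mm9, counted from 1. The annotation and promoter sequences at hand are on GRCm38.p6, so no gene, marker or sequence was assigned to a chain, and the identity of the Kupffer cells was not checked against marker genes.

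Most chains were short and a small number were large. The median chain held 12 Kupffer-only peaks (quartiles 10 and 15) over a span of 41.6 kb (quartiles 33.5 and 53.6 kb). Chains of 10 to 14 peaks made up 540 of the 721, chains of 15 to 19 peaks 119, and chains of 20 or more 62. The 62 largest held 1515 peaks, 15.7% of those in chains, and 8 chains held at least 30. Spans ran from 11.8 to 157 kb. All spans together came to 33.0 Mb, or 1.37% of chromosomes 1 to 19 between their first and last Kupffer peak, and Kupffer-only peaks themselves covered a median of 6.10% of a span (range 2.66% to 16.4%). A chain is thus mostly sequence between peaks, even where it is densest.

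**Figure D1:**
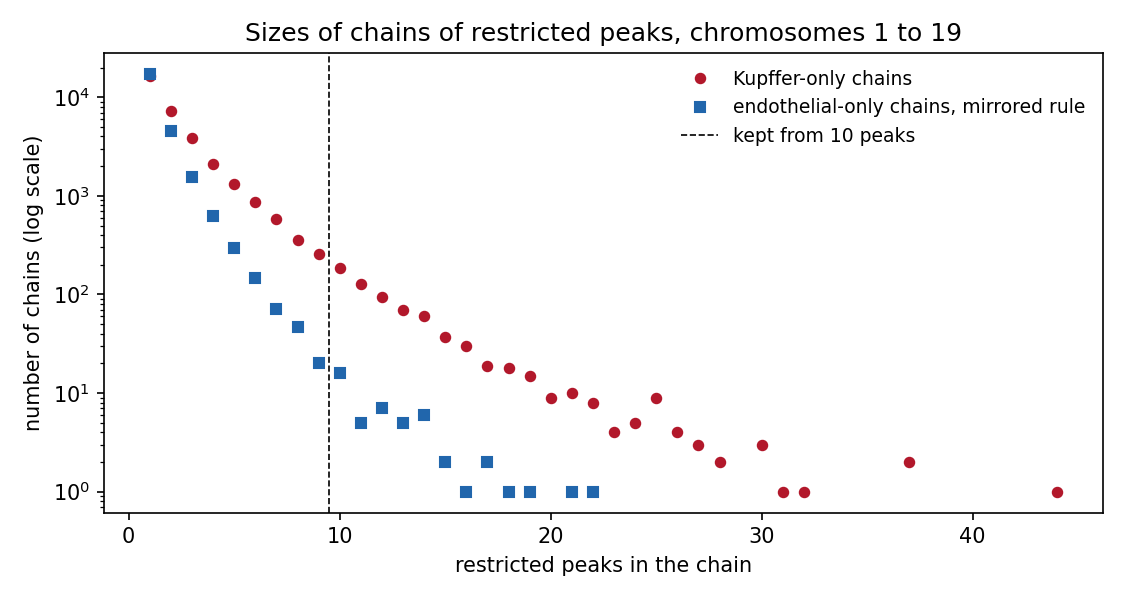
Number of chains (log scale) against the number of restricted peaks in the chain, for Kupffer-only chains (red circles) and for endothelial-only chains built by the same rule with the cell types exchanged (blue squares); the dashed line marks the minimum of 10. Kupffer-only chains become fewer with each added peak up to 20 peaks, from 255 at 9 to 187 at 10 across the minimum, and are few and uneven in number beyond, and the Kupffer-only chains reach 44 peaks against 22 in the endothelial-only ones.

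The limits of the rule fell within a continuous range. Just inside the minimum there were 187 chains of 10 peaks with a median span of 33.6 kb, and just outside it 255 chains of 9 peaks with a median span of 30.7 kb. The median gap was 2485 bp in the former and 2415.5 bp in the latter. At the ceiling for gaps, 224 gaps inside chains were between 11250 and 12500 bp, and 123 chain ends faced a gap of more than 12500 and up to 13750 bp. The number of chains therefore depends on where the limits are set: a minimum of 8 peaks gave 1331 chains, a minimum of 20 gave 62, and a ceiling of 5 kb gave 79.

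The chain with the most peaks lay on chromosome 11, at chr11:83343970-83500935, and was also the one with the longest span. It held 44 Kupffer-only peaks in 157 kb, or 28.0 per 100 kb, with 3 shared peaks inside. Its gaps had a median of 2310 bp and ran from 156 to 12015 bp. The widest of its peaks, at chr11:83401016-83401467, measured 452 bp, and 6 of the 44 had a width of exactly 151 bp, the commonest width of Kupffer peaks. Between chr11:83383829-83444466, 22 Kupffer-only peaks followed each other with no shared peak among them. Wide gaps closed the chain on both sides. The nearest endothelial-only peaks, which the rule keeps out of every chain, lay 62917 bp before and 99548 bp after it, so that its near surroundings held none either. Its size depended on the limits: the largest chain at this place held 30 peaks at a gap ceiling of 10 kb, 13 at 5 kb, and 28 when peaks of both cell types within 500 bp of each other were counted as shared.

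Chains of 37 peaks lay on chromosomes 1 and 2, and the pair differed in how many endothelial sites they took in. The chain at chr1:45874113-45981688 spanned 108 kb and held 14 shared Kupffer peaks, so that no run of its Kupffer-only peaks without a shared one was longer than 7. It was also rich in narrow calls, with 11 peaks of 151 bp and a median width of 186 bp. With all peaks of 151 bp removed from both lists its largest remaining chain held 9 peaks, below the minimum. It held 16 when sharing was extended to peaks up to 500 bp apart. The chain at chr2:90300540-90406539 spanned 106 kb, held 7 shared peaks and had a run of 14 without one. No endothelial-only peak lay within 2595339 bp before it, whereas on its other side one lay 574 bp away.

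That single endothelial-only peak on chromosome 2 parted the chain from another. The next chain, at chr2:90407299-90490459, began 759 bp further on and held 21 Kupffer-only peaks. The pair together counted 58 Kupffer-only peaks over 190 kb, more than the chain on chromosome 11. With endothelial-only peaks ignored, so that only gaps end a chain, the stretch on chromosome 2 became a chain of 62 peaks, while that on chromosome 11 stayed at 44. The order of the largest stretches also changed with the other limits: at a gap ceiling of 10 kb the chain on chromosome 2 held 37 peaks against 30 on chromosome 11. With sharing extended to peaks up to 500 bp apart, the stretch on chromosome 19 described next held 50, that on chromosome 2 held 46 and that on chromosome 11 held 28. Under other settings chromosome 11 stayed ahead of chromosome 2, with 50 against 39 peaks at a ceiling of 15 kb and 13 against 11 at 5 kb. It also did with sharing at an overlap of 50% of both peaks (44 against 27) and without peaks of 151 bp (39 against 26). The same held with peaks within 1 kb counted once (34 against 26) and with shared peaks also ending a chain (22 against 14). Chromosome 11 was not the largest in all of these settings. At 5 kb the stretches on chromosomes 1 and 19 held 17 each and a stretch on chromosome 18 held 16. With shared peaks also ending a chain, a stretch on chromosome 16 held 26.

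On chromosome 19, the chain at chr19:55871840-55995926 held 32 Kupffer-only and 7 shared peaks in 124 kb. An endothelial-only peak 4317 bp before it closed that side, and another kept chain lay 9685 bp away. With 25.8 peaks per 100 kb and a median gap of 3176 bp, it was the most sparsely set of the 10 chains with the most peaks. Without peaks of 151 bp it fell to 10 peaks, and with endothelial-only peaks ignored it grew to 56. The 100 kb window between 55800001 and 55900000, the fullest of its kind, held 37 Kupffer-only and 2 endothelial-only peaks; 32 of the 37 belonged to chains, but to 3 different ones, the largest part in a single chain being 19.

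The chain at chr7:95333792-95443991 held 31 Kupffer-only peaks in 110 kb with 4 shared ones. Its nearest endothelial-only peaks lay 231887 bp before and 704 bp after it. When sharing was extended to peaks up to 500 bp apart its largest remaining chain held 11. Chromosome 16 carried 2 chains of 30 peaks with different make-up. The chain at chr16:36615832-36718935 (103 kb) held 3 shared peaks, and 26 of its Kupffer-only peaks, at chr16:36631824-36711706, followed each other without a shared one, the longest such run in any of the 721 chains. At a gap ceiling of 10 kb its largest remaining chain held 10, and without peaks of 151 bp it held 13. The chain at chr16:33829395-33927982 (98.6 kb) held 11 shared peaks and its longest such run was 11.

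The 3 remaining chains among the 10 with the most peaks were on chromosomes 18 and 13. The chain at chr18:61228147-61294510 packed 30 Kupffer-only peaks into 66.4 kb, or 45.2 per 100 kb, the tightest of the 10, with a median gap of 1519 bp. The chain at chr13:20189943-20274425 held 28 in 84.5 kb and the chain at chr18:4234358-4337332 held 28 in 103 kb, with 3 and 4 shared peaks inside. Of the 10 chains, 6 were closed on 1 side by a wide gap alone and on the other by an endothelial-only peak within 3072 bp.

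**Figure D2:**
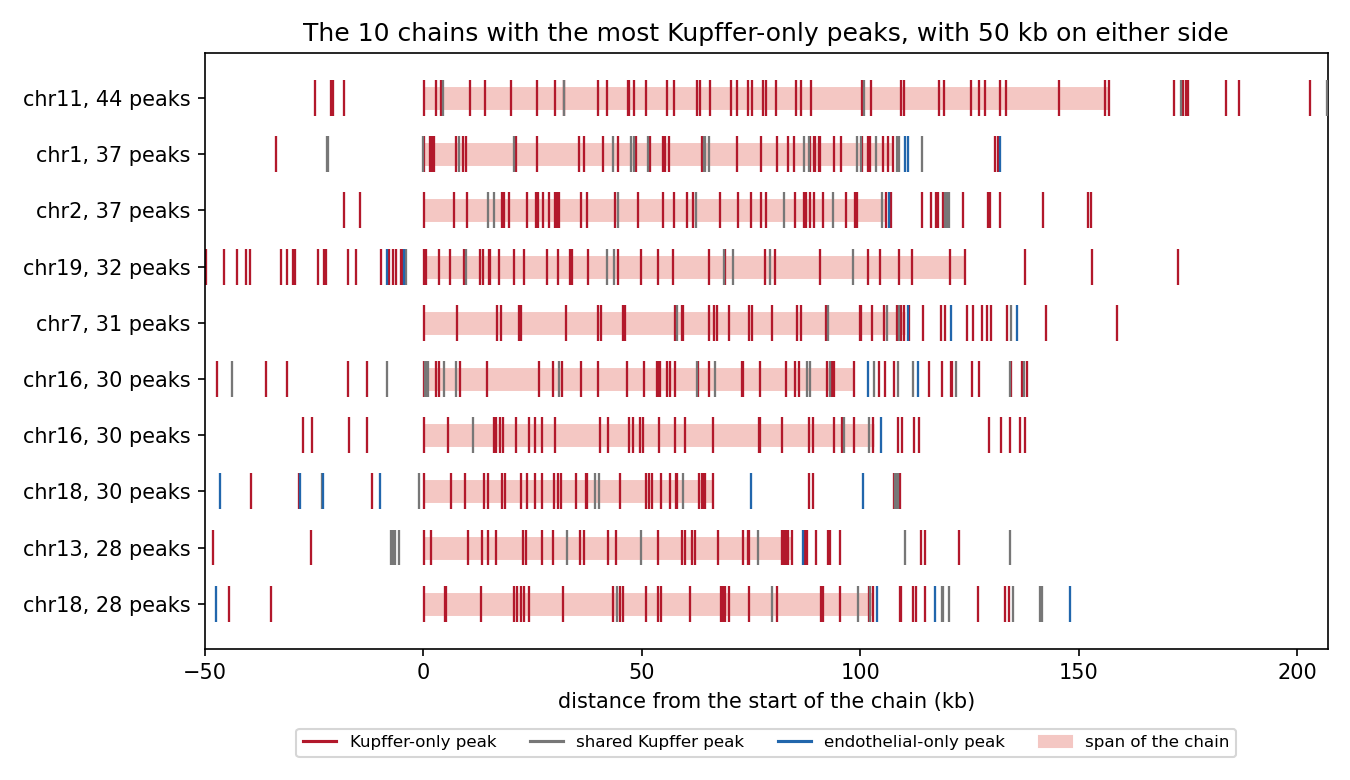
Positions of peaks in and around the 10 chains with the most Kupffer-only peaks, as distance in kb from the start of each chain; red ticks are Kupffer-only, grey ticks shared and blue ticks endothelial-only peaks, and the shaded bar is the span of the chain. Spans run from 66.4 kb (chromosome 18) to 157 kb (chromosome 11), blue ticks lie outside every bar because the rule puts them there, and red ticks go on beyond a blue one in several rows, as on chromosomes 2, 7 and 19.

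Some of the longest chains were sparsely set with Kupffer-only peaks. The chain at chr11:29594201-29723435 was the second longest, at 129 kb, with 25 Kupffer-only peaks, 2 shared ones and a median gap of 4953 bp. The chain at chr15:98767325-98896459 spanned nearly the same length, 129 kb, with 25 Kupffer-only but 14 shared peaks. The chain at chr13:37799188-37912673 (113 kb) held 23 and 6. These 3 had 19.3, 19.4 and 20.3 Kupffer-only peaks per 100 kb, against a median of 29.8 over all chains (quartiles 25.1 and 35.9). The most shared peaks in any chain were 15, at chr7:105486861-105596435, beside 25 Kupffer-only peaks; this chain was picked out after its value was seen.

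The 5 most closely packed chains held between 10 and 14 Kupffer-only peaks. The chain at chr9:63450884-63462708 placed 10 Kupffer-only peaks in 11.8 kb, or 84.6 per 100 kb, and 16.4% of that span was peak sequence. The chains at chr15:77647919-77663386 and chr10:126747096-126762779 each held 10 in 15.5 and 15.7 kb. The chain at chr6:83587366-83609666 held 14 in 22.3 kb, and the chain at chr15:8655033-8672768 held 11 in 17.7 kb, the last 2 with no shared peak. Their counts rest on peaks in close groups. When Kupffer-only peaks no more than 1 kb apart were treated as 1, the 5 chains fell to between 4 and 7.

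Chains without any shared peak numbered 139 of 721, or 19.3% (16.5% to 22.4%). In these, every peak that either list placed between the first and the last was Kupffer-only. The largest of them, at chr1:122364002-122446937, held 22 peaks in 82.9 kb. It was followed by chr7:50863483-50925726 with 21 peaks in 62.2 kb, chr2:159870464-159919364 with 20 in 48.9 kb, and the chains at chr13:9349683-9418837 and chr8:85566406-85639100 with 19 each. The surroundings of these 5 differed. The chain on chromosome 8 had no endothelial-only peak within 200672 bp before or 546915 bp after it, whereas that on chromosome 13 had one 379 bp before and another 2169 bp after it, the former parting it from a chain of 11 peaks.

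Spacing inside chains was uneven. The median gap between neighbouring Kupffer-only peaks was 2434.5 bp, with quartiles of 703.75 and 5411.5 bp. Of 8928 gaps, 2770 or 31.03% were up to 1 kb, 40.9% were over 1 and up to 5 kb, and 28.0% were longer. The gaps of chains of 2 to 9 peaks, which met the same ceiling, had a median of 2632 bp, and 30.7% of them (30.2% to 31.1%) were up to 1 kb, close to the share in the kept chains (30.1% to 32.0%). Gaps up to 1 kb were thus about as frequent in large chains as in small ones.

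Peaks of a chain often came in close groups. A neighbour in the same chain lay within 1 kb of 4763 of the 9649 peaks, or 49.4%. Measured between centres, the commonest spacing in classes of 50 bp was 400 to 450 bp, with 231 pairs, and 14.7% of neighbouring peaks lay 250 to 600 bp apart against 5.62% at 1250 to 1600 bp, a range of the same size. The lists do not say whether such pairs were cut from 1 accessible stretch during peak calling or merging. With such peaks treated as 1, 275 chains reached 10, and the chain at chr11:83343970-83500935 had 34, the most among the 23 chains named by rule.

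Shared peaks were fewer among the Kupffer peaks of chains than elsewhere, as the choice of Kupffer-only peaks entails. They made up 1846 of 11495 Kupffer peaks within the spans, or 16.1% (15.4% to 16.7%), against 39.1% on chromosomes 1 to 19. Smaller chains, chosen by the same gap limit, had shares of 14.9% (14.6% to 15.3%) with 2 to 4 peaks and 18.1% (17.7% to 18.6%) with 5 to 9. Shares below that of the chromosomes were thus found in smaller chains too. A shared peak counts as inside only between the first and last Kupffer-only peak, so the share depends on chain size by construction. The sizes can therefore not be ranked by it. Per length of genome shared peaks were nonetheless more frequent, with 5.60 per 100 kb of span against 2.19 over the chromosomes. They were also frequent around chains, with 6.00 per 100 kb in the first 10 kb outside an end and 4.26 from 90 to 100 kb. The median chain held 2 of them (quartiles 1 and 4), 125 chains held 5 or more and 10 chains held 10 or more. The rule set no limit on shared peaks, but it chose regions rich in Kupffer peaks, and these densities are a description. A shared peak inside a chain lay a median of 769.5 bp from the nearest Kupffer-only peak, and 58.2% (55.9% to 60.5%) lay within 1 kb of one.

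Shared peaks lay along the whole chain. The first 20% and the last 20% of the span together held 42.8% of them (40.6% to 45.1%), and the middle 20% held 19.3% (17.5% to 21.2%). The outer class joins both ends and so covers more of the span than the middle class. Its larger share is therefore no sign of crowding at the ends. Kupffer-only peaks other than the first and last were at 37.4% (36.3% to 38.4%) in the outer class and 22.2% (21.3% to 23.1%) in the middle. The outer share was thus somewhat higher for shared peaks than for these Kupffer-only peaks. The first and last Kupffer-only peaks lie at the ends by definition, and counting them would raise the outer share of Kupffer-only peaks. The rule also sets the ends by the positions of Kupffer-only peaks, so this difference is a description and was not tested. Long stretches were free of shared peaks: the longest run of Kupffer-only peaks without a shared peak had a median of 8 peaks, and in 273 chains (37.9%) it reached 10 or more. If a shared peak also ended a chain, 279 chains of 10 or more would be kept.

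Width set no limit in the chaining, but it is not independent of the choice: a wider peak is more readily overlapped by an endothelial one, and gaps are measured between the edges of peaks. The widths are therefore given as a description. Kupffer-only peaks in chains had a median width of 201 bp (quartiles 166 and 229 bp), and all other Kupffer-only peaks one of 193 bp (quartiles 151 and 224 bp). The 2 sets differed mainly in narrow calls. Exactly 151 bp was the width of 19.8% of peaks in chains (19.1% to 20.7%) and of 28.5% of the others (28.1% to 28.8%), and without peaks of 151 bp the medians were 211 and 210 bp. The share of narrow calls was lower the larger the chain, up to the kept sizes: 37.8% of Kupffer-only peaks that stood alone, 29.1% in chains of 2, 23.6% in chains of 5 to 9, 20.04% in chains of 10 to 14, 20.3% in chains of 15 to 19 and 18.5% in chains of 20 or more. Among the 3 classes of kept chains the intervals (19.05% to 21.1%, 18.5% to 22.1% and 16.6% to 20.5%) overlapped. Peaks of a chain share their region, so these intervals are too narrow, and no test was made.

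**Figure D3:**
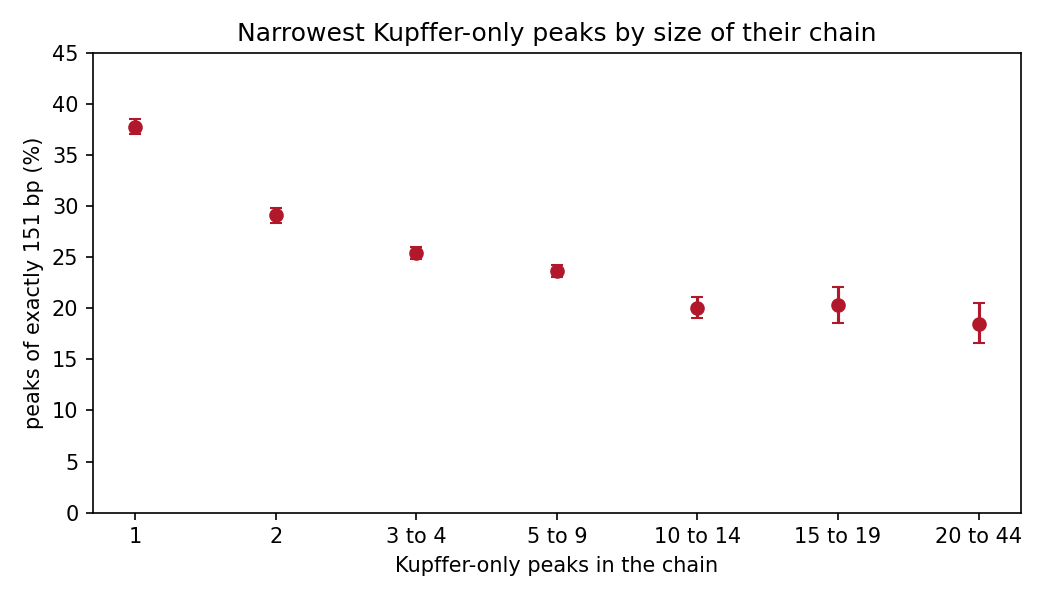
Share of Kupffer-only peaks with a width of exactly 151 bp (percent) against the number of Kupffer-only peaks in their chain; points are shares and bars 95% exact binomial intervals, which cover counting error only. The share falls from 37.8% for peaks that stand alone to 20.04% in chains of 10 to 14 and changes little beyond that size.

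Within a chain, width hardly varied with position or crowding. The first and last peaks of chains had a median width of 201 bp, as did the peaks between them. Peaks with a chain neighbour within 500 bp had a median of 200 bp, those with the nearest neighbour at over 1000 and up to 2000 bp one of 204 bp, and those with none within 5000 bp one of 198 bp. Median widths of single chains ran from 151 to 254 bp, with quartiles of 191 and 209.5 bp. Wide peaks in chains were more often shared: of Kupffer peaks over 300 bp within the spans 34.0% were shared (29.9% to 38.2%), against 12.6% of those of 151 bp (11.2% to 14.02%). Outside chains the corresponding shares were 64.4% and 37.5%.

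The shared sites inside chains offered a comparison of both cell types at 1 place. In Kupffer cells these sites had a median width of 213 bp (207 bp at shared sites outside chains), and 14.9% were narrow calls of 151 bp (13.3% to 16.6%), against 24.3% outside (23.9% to 24.7%). In endothelial cells the shared peaks inside chains had a median of 207 bp (210 bp outside), and 27.9% were narrow (25.9% to 30.0%), against 27.3% outside (26.9% to 27.7%). The share of narrow calls was therefore lower inside chains in the Kupffer list, while in the endothelial list the shares inside and outside were close. Peaks are not replicates and those of a chain share their region, so these intervals are too narrow, and no test was made. Site by site, the Kupffer call was the wider one at 49.6% of shared sites inside chains (47.3% to 51.9%) and at 41.0% outside (40.5% to 41.4%), and the endothelial call was the wider one at 41.4% and 43.9%. The Kupffer width minus the endothelial width had a median of 0 bp in both places, a mean of 4.44 bp inside and of -5.79 bp outside, and an upper quartile of 47 bp inside and 32 bp outside. A shared site was narrow in endothelial cells and wider in Kupffer cells at 18.6% of sites inside chains and 12.1% outside, and the reverse held at 6.45% and 9.81%. The sources used here do not describe how libraries were combined into a list.

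Chains ended more often at a gap than at an endothelial-only peak. Of 1442 ends, 753 or 52.2% (49.6% to 54.8%) faced a gap over 12500 bp with no endothelial-only peak in it. Another 316 (21.9%) faced such a gap that also held an endothelial-only peak, 372 (25.8%) met an endothelial-only peak before the gap reached 12500 bp, and 1 lay at the end of a chromosome's list. Endothelial-only peaks closed 49 chains on both sides, and 398 chains on neither side were closed by one within the ceiling. The share of ends at an endothelial-only peak depended on the definition of sharing, in both directions. It was 14.05% when endothelial and Kupffer peaks within 500 bp of each other were counted as shared. When sharing needed an overlap of 50% of both peaks, it was 32.9%.

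The surroundings of chains were still rich in Kupffer-only peaks. From 10 to 20 kb outside an end there were 10.1 Kupffer-only peaks per 100 kb, from 20 to 30 kb 12.0, and from 90 to 100 kb 8.04, all above the average of 3.40 over chromosomes 1 to 19. In the first 10 kb the density was 4.19, since the rule places an empty gap or an endothelial-only peak there. Shared peaks stood at 6.00 per 100 kb in the first 10 kb and at 4.26 in the last, against an average of 2.19. Endothelial-only peaks stood at 4.85 per 100 kb in the first 10 kb, where they close chains, and between 2.28 and 2.89 beyond it, above their own average of 1.55. All 3 kinds of peak were thus denser around chains than over the chromosomes as a whole. The regions around chains are in part other chains, and the averages include long stretches with few peaks of any kind.

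**Figure D4:**
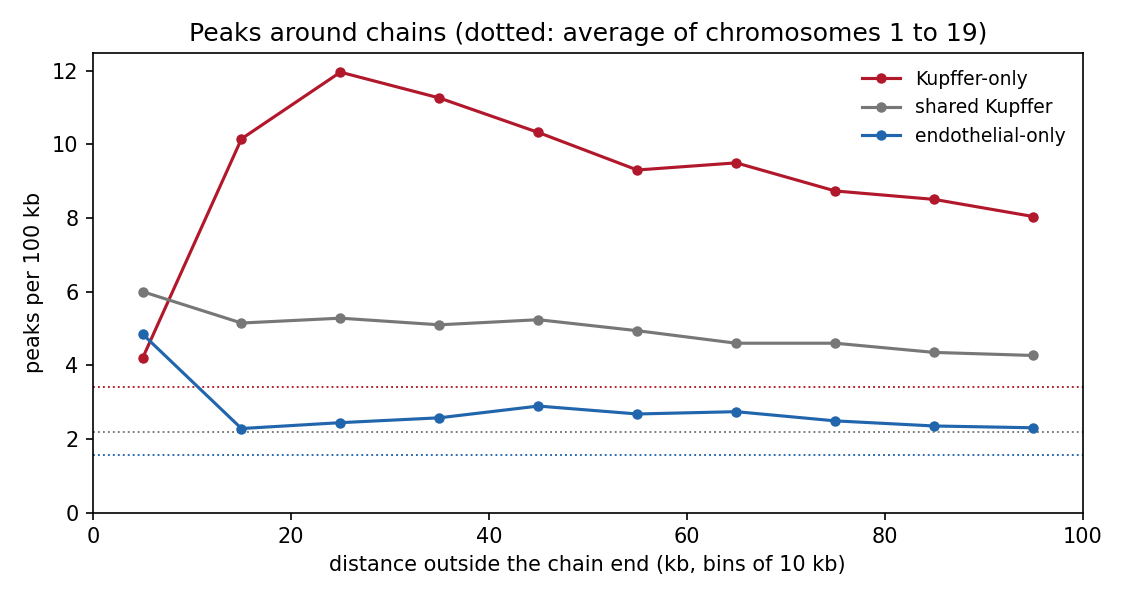
Peaks per 100 kb in bins of 10 kb outside the 1442 chain ends, for Kupffer-only (red), shared Kupffer (grey) and endothelial-only peaks (blue); dotted lines give the average of chromosomes 1 to 19 for each. Kupffer-only peaks reach 12.0 at 20 to 30 kb and are still at 8.04 at 90 to 100 kb, and the dip in the first 10 kb comes from the rule that ends a chain.

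Distances to the other cell type's restricted peaks varied widely. From a chain end to the nearest endothelial-only peak outside, the median was 26.8 kb (quartiles 4.02 and 84.7 kb). Of the 1439 ends with an endothelial-only peak further out, 27.8% had one within 5 kb and 21.2% had none within 100 kb. On both sides, 47 chains were free of endothelial-only peaks for 100 kb. The most isolated of the closely packed chains, at chr15:8655033-8672768, had its nearest endothelial-only peaks 509774 bp before and 377175 bp after it.

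Chains also lay near each other. Another kept chain was found within 100 kb of 175 chains, or 24.3% (21.2% to 27.6%), and within 25 kb of 89, while the median distance to the nearest other chain was 470 kb. In 15 pairs, only endothelial-only peaks within the ceiling parted the 2 chains, and in 11 of these it was a single peak. After the pair on chromosome 2 described above, the largest lay on chromosome 9, where chains of 20 and 21 peaks at chr9:47423787-47479447 and chr9:47491111-47552202 were 11663 bp apart with 1 endothelial-only peak between them. On chromosome 3, chains of 13 and 18 peaks at chr3:106865676-106903976 and chr3:106904915-106965213 were 938 bp apart.

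Chromosomes differed in how much of their Kupffer-only peaks lay in chains. Chromosomes 19, 11 and 1 had the highest shares, with 14.8% (13.4% to 16.1%), 14.5% (13.7% to 15.4%) and 14.5% (13.6% to 15.4%). Chromosome 8 had the lowest, with 8.39% (7.55% to 9.29%), followed by chromosome 6 with 9.56% (8.73% to 10.4%) and chromosome 4 with 9.98% (9.17% to 10.8%). The remaining 13 chromosomes lay between 10.7% and 12.9%. Counted as chains per 1000 Kupffer-only peaks, chromosome 14 with 10.39 stood beside chromosomes 1, 11 and 19 with 10.40, 10.34 and 10.35, and the lowest were chromosomes 8 and 18 with 6.76 and 7.31. In number, chromosome 11 led with 63 chains, followed by chromosome 1 with 60 and chromosome 2 with 59, and per length chromosomes 11 and 19 stood apart with 5.31 and 4.82 chains per 10 Mb, against 2.11 to 3.39 on the others. Chromosomes 11 and 19 were also those with the most Kupffer-only peaks per 100 kb, 5.13 and 4.65, but chromosome 1, with 2.98, was not dense in such peaks and still had 14.5% of them in chains. Peaks of a chain enter these shares together, so the intervals are too narrow to compare chromosomes by.

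**Figure D5:**
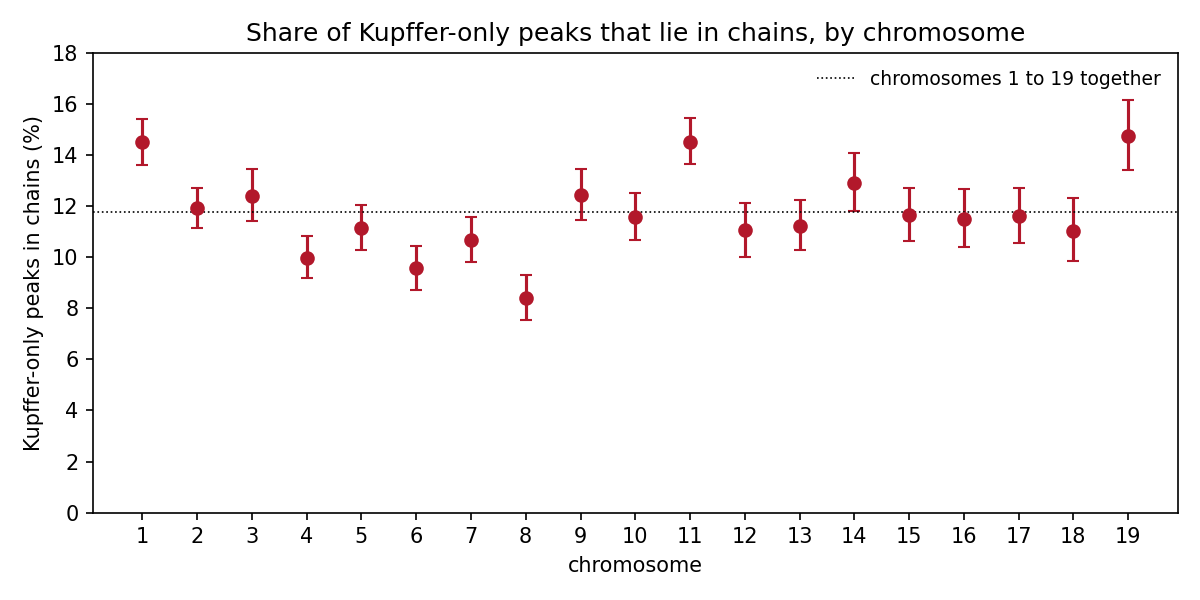
Share of Kupffer-only peaks that lie in kept chains (percent) for chromosomes 1 to 19, with 95% exact binomial intervals for counting error; the dotted line is the share over all 19, 11.8%. Chromosomes 1, 11 and 19 lie above the line at 14.5% to 14.8%, and chromosome 8 lies lowest at 8.39%.

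Chains and windows of fixed size picked out related but not identical places. Of 248 windows of 100 kb with 20 or more Kupffer-only peaks, 207 (83.5%) held peaks of a kept chain. Of the Kupffer-only peaks in the 248 windows, 58.3% belonged to one, against 11.8% of all Kupffer-only peaks. Windows and chains are both chosen on how close Kupffer-only peaks lie, so much of this overlap follows from the choice. At 90300001 to 90400000 on chromosome 2 all 36 Kupffer-only peaks of the window came from 1 chain. At 102400001 to 102500000 on chromosome 5 the window held 33 Kupffer-only and 5 endothelial-only peaks, and 27 of the 33 were in 2 chains of which the larger part was 17. At 45000001 to 45100000 on chromosome 9 all 32 were in 2 chains.

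The same rule with the cell types exchanged gave fewer chains, and fewer large ones. Endothelial-only chains of 10 or more numbered 48 and held 608 of 37387 endothelial-only peaks, or 1.63%, against 11.8% of Kupffer-only peaks in Kupffer-only chains. The largest held 22 peaks, at chr4:57770978-57880026, and 2 reached 20, against 62 Kupffer-only chains. Kept chains of the 2 kinds were of like size, at 12 peaks for the median chain in each, a median span of 42.3 kb against 41.6 kb and a median gap of 2604.5 bp against 2434.5 bp under a common ceiling and minimum. There were 2.19 Kupffer-only peaks for each endothelial-only peak. With the ceiling widened by that ratio, to 27397 bp, endothelial-only chains numbered 129 with 4.70% of endothelial-only peaks (4.49% to 4.92%), and the largest held 34. The wider ceiling does not adjust for the number of peaks that can end a chain. Endothelial-only chains could be cut by 81942 Kupffer-only peaks, and Kupffer-only chains by 37387 endothelial-only peaks. Depth is also unknown for either list. The part of depth and of these cutting peaks in the difference was not tested.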

How the data were processed

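ATAC-seq libraries of Kupffer and endothelial cells were reduced by the authors to 1 peak list per cell type, deposited with chromosome, start and end in base pairs and no other value. The submitters' processing notes list Bowtie, HOMER and the build mm9, and give no version of either tool. How peaks were called, whether cut positions were shifted, and how libraries were combined is not given in the sources used here.

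Sharing and chains were computed with NumPy 2.4.6 and pandas 2.3.3 in Python 3.11.15, and shared peaks checked against bedtools 2.31.1, with 52712 in both. The chaining was tested on simulated lists. A gap runs from the end of a peak to the start of the next, and a span from the first to the last Kupffer-only peak. Intervals of shares, at 95%, are exact (Clopper-Pearson), were made with SciPy 1.17.1 and treat peaks as independent. No p-value was computed, since peaks are not replicates.

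The members and the rules were chosen with earlier results of these data known. Named are the 10 chains with the most peaks, the 5 longest, the 5 densest and the 5 largest without a shared peak, 23 in all; other positions were chosen after their values were seen. The gene lists, markers and motifs were not used, since no annotation or genome of mm9 was at hand. Alternatives covered sharing, the gap ceiling, the minimum, narrow and close peaks, what ends a chain, and chromosome X.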

Additional observations from a re-analysis of the deposited data

How the results depend on the processing

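Of 52 alternative values for the results over all chains, 11 stayed within 1.5 times a count or ratio, or within the 95% interval of a share or median, and 41 moved further. Values are given as number of chains (721 as reported), share of Kupffer-only peaks in them (11.8%), median span (41.6 kb), gaps up to 1 kb (31.03%) and shared peaks among Kupffer peaks within spans (16.1%), where they moved. A gap ceiling of 5 kb gave 79 chains, 1.14%, 21.4 kb, 40.0% and 9.24%. At 10 kb the last 4 were 7.87%, 35.4 kb, 32.9% and 13.98%, and at 15 kb 15.1%, 48.9 kb, 29.7% and 17.0%. Without peaks of 151 bp they were 10.8%, 43.8 kb, 28.5% and 12.7%, and the median width was 211 bp. Counting Kupffer-only peaks within 1 kb once gave 275 chains, 5.23%, 57.1 kb and 20.8%, and by construction 0% of gaps up to 1 kb. Sharing at an overlap of 50% of both peaks gave 9.93% of peaks in chains, 13.7% shared and 32.9% of chain ends at an endothelial-only peak (25.8% as reported). Sharing within 500 bp gave 11.03%, 43.3 kb, 17.7% shared and 14.05% of ends. The number of chains changed by less than 1.5 times in these settings: 500 at 10 kb, 892 at 15 kb and 542 without peaks of 151 bp. It was 663 with sharing at an overlap of 50% and 573 with sharing within 500 bp. Chains and the share of peaks in them were 1259 and 22.6% with endothelial-only peaks ignored, 279 and 4.22% with shared peaks also ending a chain, and 1331 and 18.04%, 181 and 4.25%, and 62 and 1.85% at minimums of 8, 15 and 20. The mirrored endothelial-only chains numbered 129 with the scaled ceiling. Most of these settings change the number by construction. Of the 23 named chains, 6 still overlapped a chain of 10 or more at a ceiling of 5 kb, 17 with shared peaks also ending a chain, 18 with close peaks counted once, 19 without peaks of 151 bp, 21 with sharing within 500 bp and 22 at 10 kb. No paired analysis was possible because neither list ties its peaks to libraries. For that reason leaving out replicates was not possible either, and a stricter peak threshold would need scores. Alternatives for genes and motifs were not run. Whether a peak is missing from a list for want of depth cannot be read from these files.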

Other observations

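Chromosome X, which the rule leaves out, held 11 chains of 10 or more Kupffer-only peaks, the largest with 18. With it included there were 732 chains, which held 11.7% of Kupffer-only peaks.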
